A study of Homo sapiens with 6 samples.

Results

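The ATP-binding cassette (ABC) transporter genes were described here by the peaks of histone H4 lysine 5 lactylation (H4K5la) that lie on and around them. Members were the autosomal protein-coding RefSeq genes whose symbol begins with ABCA to ABCG and a number, and a peak was assigned to a gene where it shared at least 1 bp with the gene span plus 5 kb on either side. The rule takes 44 of 19126 autosomal coding genes: 12 ABCA, 8 ABCB, 11 ABCC, 3 ABCD, 1 ABCE, 4 ABCF and 5 ABCG genes. The ABCF members include ABCF2-H2BK1, a read-through gene whose span contains ABCF2. TAP1, TAP2 and CFTR belong to the family but carry other symbols, so they are not members.

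The cells were PLC/PRF/5, an established human line from hepatocellular carcinoma, and H4K5la was mapped with ChIP-seq, the sequencing of DNA pulled down with an antibody to the mark. Peak lists were analysed for 2 libraries from cells given 20 mM lactate (as lactic acid) for 24 h, replicates 2 and 3, and for 2 libraries from untreated control cells, replicates 2 and 3. Both groups share the cell line and the antibody, and the labels list 1 input library for each treatment, so input and treatment cannot be told apart. Nothing in the labels says whether replicates came from separate cultures, so the spread between them may be technical.

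The lists hold 37951 and 38402 peaks for the lactate and 52215 and 52959 peaks for the control libraries, and no read totals. Peaks are places called above the caller's cut, so H4K5la below that cut is missed at a gene listed with none. The cells were measured in bulk, so fewer cells with the mark and less mark per cell cannot be told apart. Of 11 hepatocyte marker genes, 5 held a peak in any library, and HNF4A held one in all 4 libraries. The genes of the secreted proteins ALB, AFP, APOB, TTR, FGB and AHSG held none. Among other secreted proteins, APOA2 was control-only, SERPINA1 had a peak in control replicate 3 alone and TF in lactate replicate 2 alone. Of 6 markers of blood, endothelial and stromal cells, 5 held a peak in any library and PTPRC held none. A peak was in all 4 libraries at 2 of 11 hepatocyte markers (18.2%) and 4 of 6 of the other markers (66.7%), against 34.2% of all autosomal coding genes. These lists are small and the difference was not tested.

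ABC transporters are membrane proteins that bind and hydrolyse ATP to move substrates from lipids and sterols to bile salts, drugs and peptides. In hepatocytes, members at the canalicular membrane load bile with bile salts, phospholipid, cholesterol and conjugated drugs, and members at the basolateral membrane return conjugates to the blood. Subfamily D serves the peroxisome, and subfamilies E and F lack membrane-spanning parts and act on ribosomes. Lactylation is an acyl mark on lysine that is fed by lactate.

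The sequences before the annotated starts of 3 loci are shown first, because the peaks over their starts were present in all 4 libraries, in 3 libraries, and in the control libraries alone. They are RefSeq sequences on GRCh38.p14, read 5′ to 3′ on the strand of the named gene, and capitals mark matches, on either strand, to GGGCGG, the GC box, and to a GATA motif with the letters AGATAA. ABCG5 and ABCG8 are transcribed away from each other, and the stretch between their starts in the RefSeq promoter table, which the full RefSeq span of ABCG5 also covers, is chr2:43838840-43838970, given on the plus strand. The ABCC9 stretch is chr12:21941427-21941676 on the minus strand, and the ABCF3 stretch is chr3:184185949-184186198 on the plus strand.
ABCG5-ABCG8 gap: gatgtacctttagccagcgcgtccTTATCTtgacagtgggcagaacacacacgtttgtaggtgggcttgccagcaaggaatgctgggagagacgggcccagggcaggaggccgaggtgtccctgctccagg
ABCC9: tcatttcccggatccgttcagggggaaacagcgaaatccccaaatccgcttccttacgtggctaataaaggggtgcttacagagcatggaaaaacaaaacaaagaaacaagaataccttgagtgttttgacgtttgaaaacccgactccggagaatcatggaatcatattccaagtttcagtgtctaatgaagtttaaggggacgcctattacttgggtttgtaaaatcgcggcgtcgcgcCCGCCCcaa
ABCF3: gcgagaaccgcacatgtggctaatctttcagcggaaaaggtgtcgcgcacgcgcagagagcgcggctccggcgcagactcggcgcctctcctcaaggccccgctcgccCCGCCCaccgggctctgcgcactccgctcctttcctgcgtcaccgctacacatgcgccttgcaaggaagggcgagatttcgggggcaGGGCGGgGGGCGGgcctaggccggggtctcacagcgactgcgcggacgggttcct

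All 131 bases of the ABCG5-ABCG8 stretch lay under a peak in each of the 4 libraries. Of the 250 bases before ABCC9, 140 and 250 lay under a peak in lactate replicates 2 and 3, and 0 and 250 in control replicates 2 and 3. Before ABCF3, 0 and 0 bases lay under a peak in the lactate libraries and 250 and 250 in the control libraries. The ABCF3 stretch is 69.6% G and C, the ABCG5-ABCG8 stretch 60.3% and the ABCC9 stretch 46.0%.

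The GC box matched at 3 places before ABCF3 and at 1 before ABCC9, and did not match between ABCG5 and ABCG8. It occurs in the 250 bases before 54.0% of the 21156 annotated starts of autosomal coding genes and in the 131 bases before 45.5%. The GATA motif matched at 1 place between ABCG5 and ABCG8, and occurs in the 131 bases before 3.20% of starts. Neither the E-box CACGTG nor the nuclear receptor half-site AGGTCA was found in these stretches. All motifs were searched on both strands, and a match is a string of letters rather than a bound site.

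Of the 44 members, 33 held a peak in at least 1 library, or 75%, where 60.8% of all autosomal coding genes did. A peak was present in all 4 libraries at 24 members (54.5%), against 34.2% of all genes. The member windows were longer, with a median of 88.9 kb against 34.5 kb over all genes. The part of window length in these shares was not tested. Control-only members, with a peak in both control and neither lactate library, numbered 3 (6.82%, against 5.9% of all genes), and lactate-only members 0 (against 1.1%). A further 6 members were mixed (13.6%, against 19.6%), and 11 held no peak (25%, against 39.2%).

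The member windows, 4.43 Mb in all, held 89 and 84 peaks in the lactate libraries and 123 and 116 in the control libraries. Each peak was counted a single time where members share it. The lactate mean was 86.5 ± 3.54 peaks and the control mean 119.5 ± 4.95 peaks (SD, n = 2 each), a ratio of 0.724. Over the windows of all autosomal coding genes the same ratio was 0.722. Peaks covered 47.8 and 45.0 kb of the member windows with lactate and 85.9 and 85.1 kb in control, a ratio of 0.543, against 0.521 over all coding genes. The lactate libraries lay below both control libraries on each measure, by about as much at the members as at coding genes at large.

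Per 100 kb of window there were 2.01 and 1.89 lactate peaks and 2.77 and 2.62 control peaks at the members. The densities over all coding genes were 2.004 and 2.033 for lactate and 2.76 and 2.83 for control. Peaks covered 1.08 and 1.01% of the member windows with lactate and 1.94 and 1.92% in control, where all coding windows had 1.17 and 1.16% with lactate and 2.23 and 2.25% in control. The family as a whole thus had a peak density close to that of coding genes, and a somewhat smaller covered share in each library. The members differed widely from each other.

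**Figure D1:**
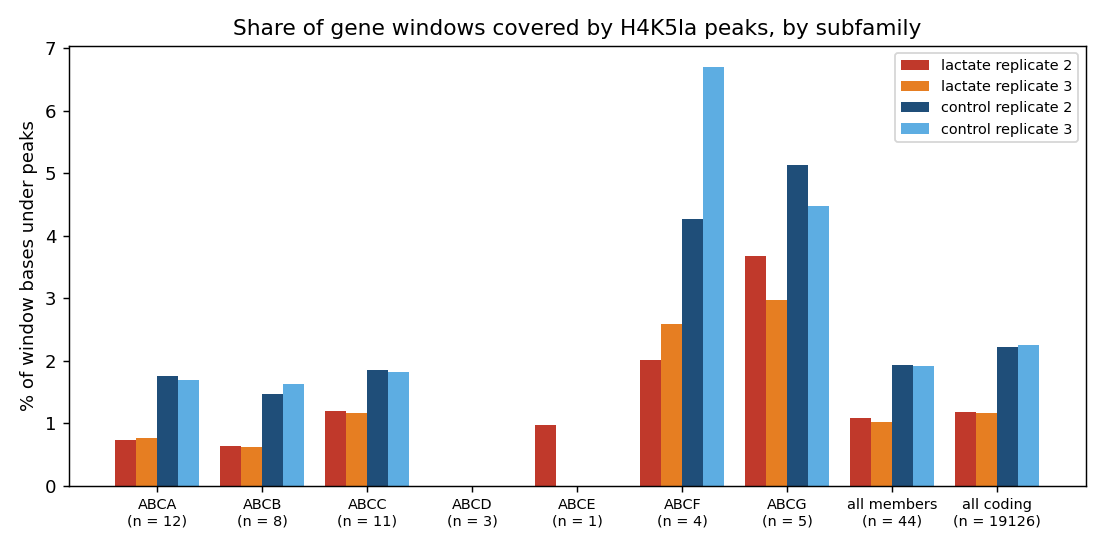
Share of gene windows (span plus 5 kb on either side) under H4K5la peaks, in percent, for each ABC subfamily, all 44 members and all 19126 autosomal coding genes. Each bar is 1 library, lactate replicates left of control replicates, with no error bars. The ABCG bars stand at 3.68 and 2.97% with lactate and 5.13 and 4.48% in control, and ABCD has no peak.

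Both lactate values of covered length lay below both control values at 19 members (43.2%), which holds for 33.8% of all coding genes. Only genes with cover in both control libraries can be counted so. Cover in either control library or both was present at 31 members and 10897 of all coding genes. Those figures therefore include genes that could not be counted as lower. Of all coding genes, 6472 were lower. Both lactate values lay above both control values at 2 members, ABCC1 and ABCC5 (4.55%, against 3.41%). The other 12 members with a peak overlapped between groups. The smallest p of the exact permutation test (two-sided, 2 libraries a group) is 0.333, and each of these 21 members had p = 0.333, so no single gene could pass a threshold of 0.05. The groups are therefore described by their values and by whether they overlap.

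The control libraries hold more peaks, so the lists were also cut to the 37951 peaks with the highest -log10 p. This is the full length of the lactate replicate 2 list, so the cut fell mainly on the control lists. The lactate to control ratio was then 0.966 for member peaks and 0.660 for covered length. Over all coding genes these ratios were 0.996 and 0.649. With equal numbers of peaks, 12 members kept both lactate values below both control values (27.3%, against 21.8% of all genes). All 12 were among the 19 before: ABCA3, ABCA7, ABCA8, ABCB8, ABCC3, ABCC8, ABCC10, ABCC12, ABCF3, ABCG1, ABCG4 and ABCG5. Both lactate values lay above both control values at 6 members (13.6%, against 6.90%), namely ABCA2, ABCA4, ABCB11, ABCC1, ABCC5 and ABCF2. ABCA2 thus stood lower with lactate in the full lists and higher at equal numbers of peaks. At ABCA2, ABCB11 and ABCC5 no control peak was left after the cut, while the lactate cover stayed the same. The shares at equal numbers of peaks also count genes that held no peak, 29.5% of the members and 44.3% of all genes.

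**Figure D2:**
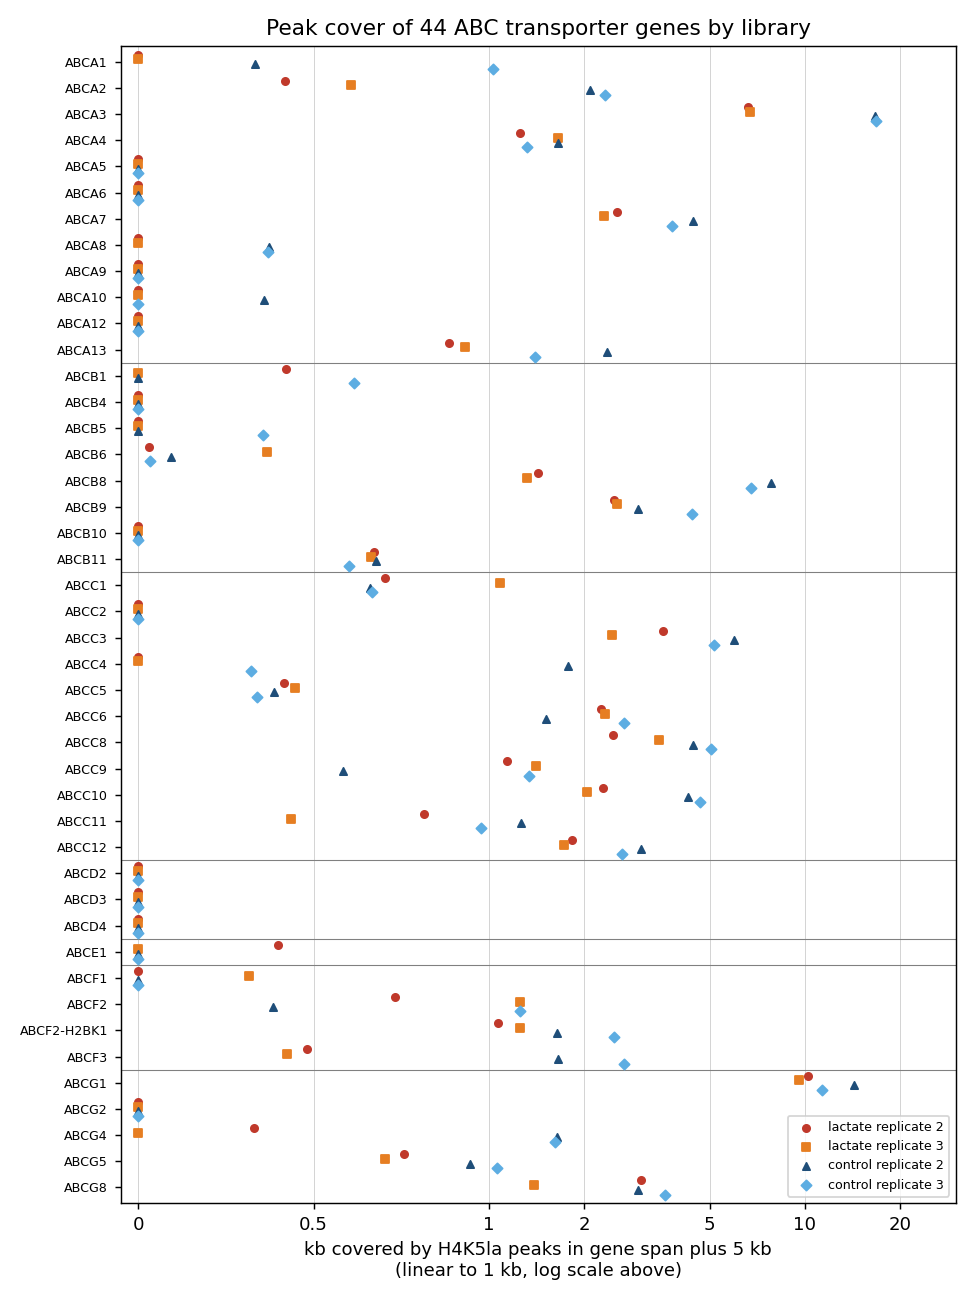
Length covered by H4K5la peaks in the window of each of the 44 ABC genes, in kb, on an axis that is linear to 1 kb and logarithmic above. Symbols are single libraries, 2 lactate and 2 control, and lines separate the subfamilies. ABCA3 and ABCG1 reach furthest right, with 16844 and 14347 bp in their highest control library, and 11 genes stand at 0 in every library.

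The ABCG subfamily moves sterols and other lipids, and 3 of its 5 members held a peak in all 4 libraries. ABCG1, which passes cellular cholesterol to high-density lipoprotein, had the best mean rank by fold enrichment of all members. Its window on chromosome 21 (gene span 42199689 to 42297244) held 17 and 16 peaks with lactate and 18 and 15 in control. Peaks covered 10260 and 9563 bp with lactate and 14347 and 11342 bp in control, without overlap between groups. The widest peak was 1439 and 1503 bp with lactate and 3560 and 3396 bp in control. Merging the lists gave 20 regions at ABCG1, with 12 shared by all 4 libraries, 1 lactate-only and none control-only.

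The lactate-only region of ABCG1 (chromosome 21, 42228803 to 42229234) had fold enrichments of 8.68 and 5.29, the authors' value for the summit over background. The strongest ABCG1 peaks reached 13.3 and 15.5 in the lactate lists and 16.7 and 15.5 in the control lists. These ranked 1878 and 848 of the lactate peaks and 122 and 639 of the control peaks. These values order the peaks inside a list, and give no change between lists.

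ABCG5 and ABCG8 encode the paired subunits of the canalicular and intestinal exporter of cholesterol and plant sterols. The peak between their starts spans 43838315 to 43839380 of chromosome 2 when the 4 lists are merged. It was 759 and 703 bp wide with lactate and 945 and 1061 bp in control, and its fold enrichment was 6.63 and 4.90 in the lactate lists and 12.4 and 12.8 in the control lists. ABCG5 held no other peak in any library. ABCG8 held a second region in all 4 libraries (43851197 to 43853343), where the widest peak was 1751 and 306 bp with lactate and 2021 and 2147 bp in control. Another region at ABCG8 (43875031 to 43875539) held a peak in both lactate libraries and in control replicate 3. Peaks covered 3019 and 1390 bp of the ABCG8 window with lactate and 2966 and 3596 bp in control, so that the groups overlapped.

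**Figure D3:**
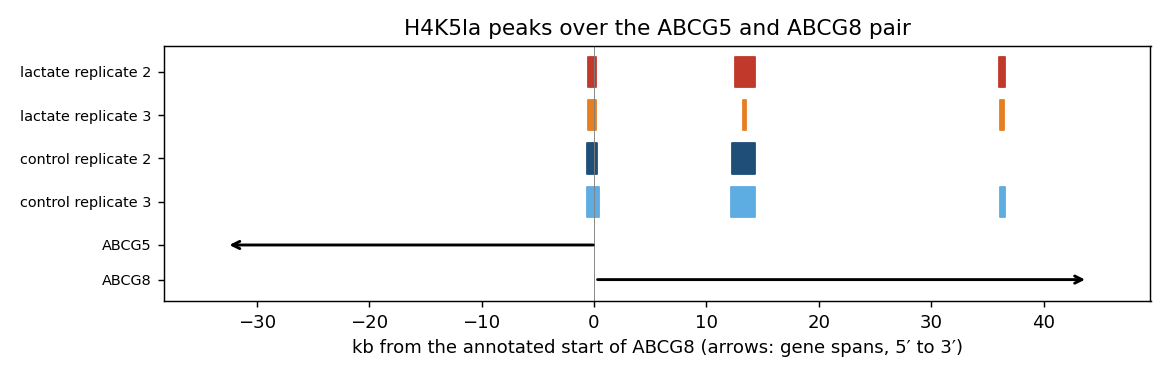
H4K5la peaks (bars) over ABCG5 and ABCG8 in each of the 4 libraries, against the distance in kb from the annotated start of ABCG8. Arrows show the gene spans in the direction of transcription. The peak at 0 is present in all 4 libraries, 703 to 1061 bp wide, and is the only peak of ABCG5.

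ABCG4, a sterol transporter best known from the brain, held 1 and 0 peaks with lactate and 4 and 4 in control. Its covered length was 330 and 0 bp with lactate and 1639 and 1621 bp in control. Of its 4 regions, 3 had peaks in both control libraries alone. ABCG2, the breast cancer resistance protein, an exporter of drugs and urate, held no peak in any library within 5 kb of its span.

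In the ABCA subfamily of lipid transporters, 5 of 12 members held a peak in all 4 libraries. ABCA3, which loads surfactant lipid into the lamellar bodies of the lung, had the longest cover of all members in the control libraries, while ABCG1 had the longest with lactate. It lies on chromosome 16 from 2275881 to 2340728 and held 11 and 11 peaks with lactate and 16 and 17 in control. The cover was 6594 and 6695 bp with lactate and 16625 and 16844 bp in control, a ratio of 0.397. Of its 18 merged regions, 7 were present in all 4 libraries and 6 in the control libraries alone.

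The widest member peak of all lay in ABCA3, from 2282846 to 2286879 in control replicate 3, and was 4034 bp wide. This stretch held 3 peaks in lactate replicate 2, 3 in lactate replicate 3 and 2 in control replicate 2. Its widest peak was 873 and 1011 bp with lactate and 2923 and 4034 bp in control. ABCA7, which handles phospholipid in phagocytes and brain, held more peaks with lactate, 5 and 5 against 4 and 4 in control, over a shorter cover. Its cover was 2542 and 2310 bp with lactate and 4433 and 3800 bp in control, and its widest peak 616 and 524 bp with lactate and 2271 and 1430 bp in control.

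ABCA2, a lipid transporter of the endolysosome, was covered over 419 and 607 bp with lactate and 2081 and 2330 bp in control. None of its 4 regions held a peak in all 4 libraries, and the lactate peaks lay in different regions. Those peaks ranked 37899 of 37951 and 37556 of 38402 by fold enrichment. With a -log10 q of at least 5, ABCA2 was mixed. ABCA4, the retinoid transporter of photoreceptors, was covered over 1250 and 1656 bp with lactate and 1651 and 1321 bp in control, with overlapping groups. None of its 7 regions held a peak in all 4 libraries, and 1 (chromosome 1, 94029297 to 94029648) was lactate-only. ABCA13, the longest member at 476 kb, held 2 and 2 peaks with lactate and 6 and 3 in control. A region of ABCA13 on chromosome 7 (48321505 to 48322077) held its strongest peaks, whose fold values were 15.4 and 15.6 in the lactate lists and 10.5 and 13.6 in the control lists.

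ABCA1 begins high-density lipoprotein formation by handing cholesterol and phospholipid to APOA1, and was control-only. It held no lactate peak, and 333 and 1028 bp of peaks in control. A peak of control replicate 3 alone (chromosome 9, 104927482 to 104928144) ended just inside the annotated start at 104928155. ABCA8 was also control-only, with 372 and 371 bp of peaks in control, in 1 region (chromosome 17, 68880480 to 68880901). ABCA8 lies in a row of 5 related genes with ABCA9, ABCA6, ABCA10 and ABCA5. This row of 459.8 kb held 0 and 0 peaks with lactate and 2 and 1 in control, and ABCA5, ABCA6 and ABCA9 held none. ABCA10 had a peak in control replicate 2 alone, and ABCA12, the keratinocyte lipid transporter, held none.

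**Figure D4:**
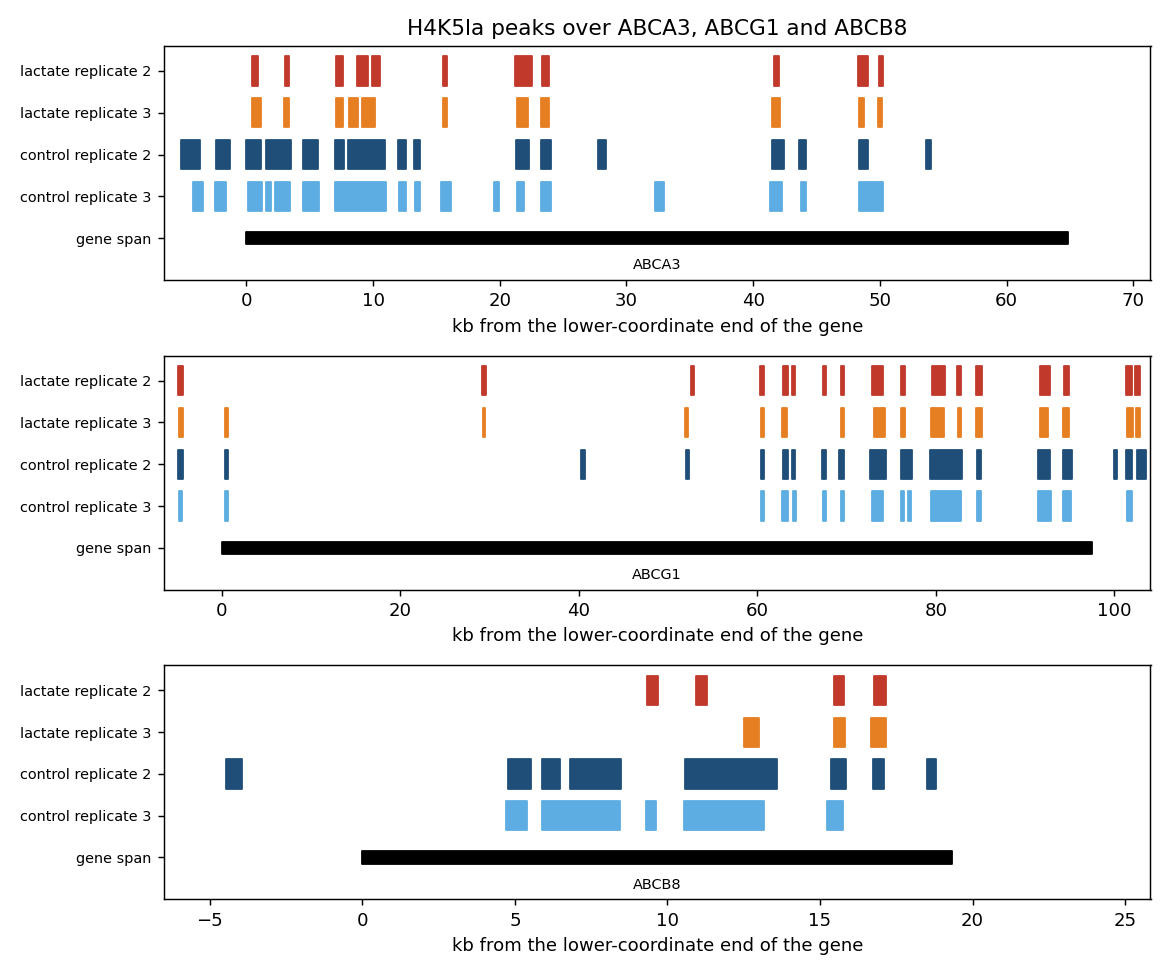
H4K5la peaks (bars) over ABCA3, ABCG1 and ABCB8 in each of the 4 libraries, against the distance in kb from the end of the gene with the lower coordinate, which need not be the start of transcription. Wide control peaks, up to 4034 bp at ABCA3, 3560 bp at ABCG1 and 3021 bp at ABCB8, stand over narrower or missing lactate peaks.

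Subfamily B holds the multidrug and bile salt exporters and several organelle transporters, and 4 of its 8 members held a peak in all 4 libraries. ABCB8, a mitochondrial half-transporter, had a ratio of 0.188, the lowest in the full lists among members with a peak in all 4 libraries. Its window held 4 and 3 peaks with lactate and 8 and 5 in control. The cover was 1425 and 1315 bp with lactate and 7789 and 6748 bp in control. A stretch of chromosome 7 from 151034328 to 151036934 held control peaks alone. A region further on (151038978 to 151042036) held a peak of 332 and 481 bp with lactate and 3021 and 2642 bp in control. The lactate peaks of this region did not overlap each other and were joined only through the wide control peaks. With equal numbers of peaks the cover was 1425 and 1315 bp with lactate and 6326 and 6432 bp in control, a ratio of 0.215, and ABCF3 was then lower at 0.209.

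ABCB9, a lysosomal peptide transporter, was covered over 2488 and 2543 bp with lactate and 2966 and 4400 bp in control. With equal numbers of peaks the groups overlapped, and its regions at the start also lie in OGFOD2. ABCB11, the bile salt export pump of the canaliculus, had 1 peak in each library, and it lay outside the gene, in the 5 kb beyond its lower end (chromosome 2, 168912827 to 168913540). The widths were 672 and 664 bp with lactate and 678 and 600 bp in control, and the fold enrichment was 8.68 and 12.6 in the lactate lists and 5.02 and 4.18 in the control lists. ABCB6, an organelle transporter linked to porphyrins, reached all 4 libraries through the edge of a peak in ATG9A.

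The other members of subfamily B held little. ABCB1, P-glycoprotein, the exporter of many drugs, had a peak of 421 bp in lactate replicate 2 and of 615 bp in control replicate 3 in a single region (chromosome 7, 87600157 to 87600773), and none in the other two libraries. That region lies within 1 kb of an annotated start inside the gene, at 87600884. ABCB4, the canalicular phospholipid floppase beside it, held no peak, nor did ABCB10 of the mitochondrial inner membrane. ABCB5 had a peak in control replicate 3 alone. Of the canalicular exporters, ABCB4, ABCC2 and ABCG2 thus held no peak, ABCB1 was mixed, and ABCB11 had its peak outside the gene, while ABCG5 and ABCG8 shared a peak at their starts.

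Subfamily C, the multidrug resistance proteins and their relatives, held a peak in all 4 libraries at 9 of 11 members. ABCC3, a basolateral exporter of bile salts and glucuronides, held 7 and 5 peaks with lactate and 10 and 8 in control. Its cover was 3554 and 2452 bp with lactate and 5971 and 5156 bp in control. Of its 11 regions, 5 were in all 4 libraries and 3 were control-only. ABCC10 was covered over 2289 and 2041 bp with lactate and 4278 and 4672 bp in control. ABCC12 had 1830 and 1730 bp of cover with lactate and 3034 and 2632 bp in control, and its neighbour ABCC11 had 814 and 437 bp with lactate and 1263 and 978 bp in control. In the full lists each of these 4 genes lay lower in both lactate libraries. With equal numbers of peaks ABCC11 had 814 and 437 bp with lactate and 573 and 578 bp in control, so that the groups overlapped and the lactate mean was higher.

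ABCC8 and ABCC9 encode the sulphonylurea receptors of ATP-sensitive potassium channels, and they differed in where the peaks lay. ABCC8, the form of the pancreatic beta cell, had 3 and 5 peaks with lactate and 6 and 7 in control along its length and in the flank, covering 2464 and 3461 bp with lactate and 4425 and 5045 bp in control. ABCC9, the form of heart and vessels, had its peaks in 1 region at its start (chromosome 12, 21941184 to 21942753). The cover there was 1138 and 1406 bp with lactate and 584 and 1341 bp in control, with overlapping groups. Its fold enrichment was 13.5 and 16.03 in the lactate lists and 5.02 and 9.51 in the control lists. The channel pore gene KCNJ11, next to ABCC8, held a peak in all 4 libraries, and KCNJ8 in 3. The KCNJ11 peak is the same as the one counted in the flank of ABCC8.

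ABCC1, the first multidrug resistance protein described in this subfamily, was covered over 703 and 1081 bp with lactate and 660 and 667 bp in control. ABCC5, a nucleotide exporter, was covered over 416 and 446 bp with lactate and 387 and 339 bp in control. Neither gene held a region with a peak in all 4 libraries, so different regions made up the cover in different libraries. At ABCC5 1 region was control-only (chromosome 3, 183971429 to 183971803). Another region (183914529 to 183914998) reached over the outer edge of the flank. Inside the window it held peaks of lactate replicate 2 and control replicate 2, and its lactate replicate 3 peak lay outside.

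ABCC6, the liver transporter whose loss causes pseudoxanthoma elasticum, had 2263 and 2327 bp of cover with lactate and 1517 and 2683 bp in control. It has near-identical pseudogene copies, and how reads shared with them were placed is not given in the sources used here. ABCC4, a basolateral exporter of cyclic nucleotides and bile salts, was control-only, with 5 peaks in control replicate 2 and 1 in control replicate 3. No 2 of these peaks overlapped, so ABCC4 held no region common to the control libraries. ABCC2, the canalicular exporter of bilirubin glucuronide, held no peak.

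Subfamily D imports very long chain fatty acids into the peroxisome, or handles cobalamin in the lysosome in the case of ABCD4, and none of its 3 autosomal members held a peak. ABCE1, which splits ribosomes for recycling, had a peak in lactate replicate 2 alone, of 398 bp, over its annotated start on chromosome 4 and also within ANAPC10. ABCF1, which takes part in translation initiation, had a peak of 316 bp in lactate replicate 3 alone. ABCF3 held 1 and 1 peaks with lactate and 3 and 3 in control, covering 481 and 423 bp with lactate and 1657 and 2684 bp in control.

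The region over the start of ABCF3 (chromosome 3, 184185427 to 184186479) was control-only, with a fold enrichment of 10.9 and 11.96, and the region near its other end was in all 4 libraries. ABCF2 was covered over 731 and 1256 bp with lactate and 384 and 1251 bp in control. Its region in all 4 libraries and another region lie outside the span of ABCF2, in H2BK1. The region that touches ABCF2 itself had peaks in lactate replicate 3 and control replicate 3 alone. The longer window of ABCF2-H2BK1 had 1070 and 1256 bp with lactate and 1644 and 2495 bp in control. ABCF2 and ABCF2-H2BK1 share 3 regions. The longer window adds a control-only region and a peak of lactate replicate 2, both in DRC11L beyond the end of the read-through gene. On the gene span alone, the read-through gene stood 214 bp higher with lactate.

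**Figure D5:**
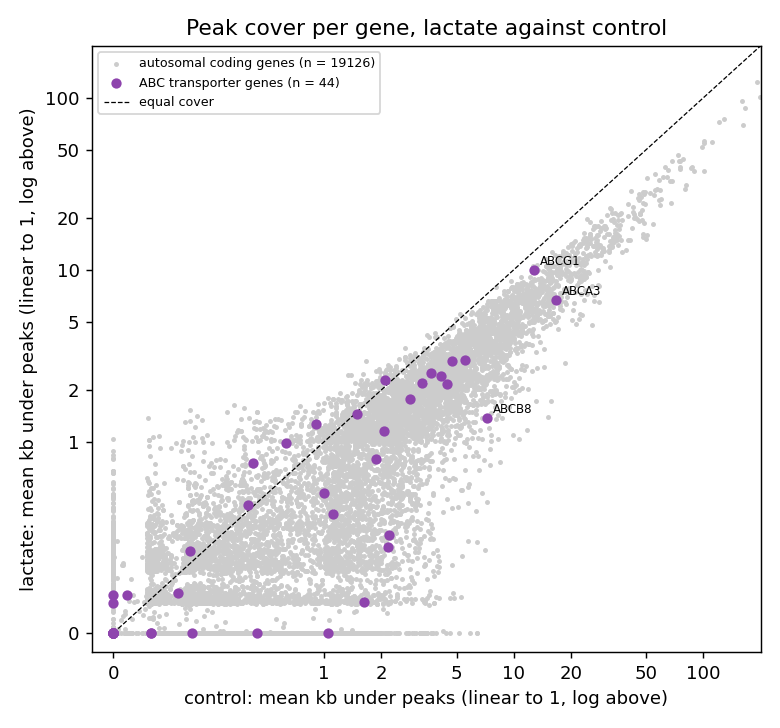
Mean length under H4K5la peaks per gene window, in kb, in lactate libraries (vertical axis) against control libraries (horizontal axis), each the mean of 2 libraries, linear to 1 kb and logarithmic above. Grey points are the 19126 autosomal coding genes and purple points the 44 ABC genes. Most ABC genes with several kb of cover lie below the line of equal cover, within the cloud of other genes.

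The surroundings of the members also differed in cover. In the 500 kb on either side of each window, peaks covered a median of 1.34% with lactate and 2.83% in control around the 24 members with a peak in all 4 libraries. Around the 11 members without a peak the medians were 0.0909% with lactate and 0.149% in control. The part of the surroundings in the members' peaks was not tested. The 11 members without a peak were not short, with a median span of 88.8 kb against 61.1 kb for the 24 members.

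ABCA2, ABCA3, ABCA7 and ABCG1 lie within 5 Mb of the outermost annotated gene of their chromosome. Their median cover was 7.99 and 7.70% of the window with lactate and 12.9 and 10.6% in control. The other 40 members had medians of 0.268 and 0.302% with lactate and 0.379 and 0.321% in control, and reached 26.6% at ABCB8. The window of ABCG1 was covered less densely than its surroundings, with 9.54 and 8.89% against 11.8 and 10.7% in the lactate libraries and 13.3 and 10.5% against 18.7 and 17.6% in the control libraries. At ABCG8 the reverse held, with 5.59 and 2.57% against 0.0686 and 0.0825% with lactate and 5.49 and 6.66% against 0 and 0% in control. In all, 14 members (31.8%) were covered more densely than their surroundings in each of the 4 libraries, against 20.6% of all autosomal coding genes. Only genes with a peak in all 4 libraries can meet this. Of the 24 such members 14 did, and of the 6538 such coding genes 3945 did.

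Merging the 4 lists over the member windows gave 161 regions, of which 141 touched the gene itself and 20 lay in the flanks alone. A peak in all 4 libraries was present in 52 of them (32.3%), against 29.0% of the 70442 merged regions of the autosomes. Control-only regions numbered 25 (15.5%, against 14.6%) and lactate-only regions 3 (1.86%, against 2.72%), at ABCA4, ABCC12 and ABCG1. The other 81 regions were mixed (50.3%, against 53.7%). Of the 161 regions, 16 also touched another coding gene. The member windows held 7 and 7 lactate peaks and 23 and 23 control peaks that were 1 kb or wider. These were 7.87 and 8.33% of the lactate and 18.7 and 19.8% of the control peaks there, against 9.69 and 9.16% of all lactate peaks and 20.2 and 19.7% of all control peaks. Of 2 kb or wider there were 0 and 0 lactate peaks and 5 and 5 control peaks, where 0.835 and 0.760% of all lactate peaks and 5.03 and 4.95% of all control peaks were that wide.

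Annotated starts could be placed for the 36 members with a promoter entry in the RefSeq table, and for ABCA4, ABCA8, ABCB4, ABCB5, ABCC1, ABCC3, ABCC8 and ABCG1 none was used. A peak overlapped the stretch from 250 bases before to 50 after a start at 10 of the 36 in any library (27.8%, against 16.8% of 15101 coding genes). It did so in all 4 libraries at 2 of them (5.56%, against 3.66%), ABCG5 and ABCG8, through the peak that they share. Within 1 kb of a start, ABCC9 joined them, so that 3 members (8.33%, against 6.24%) had a peak in all 4 libraries, and 12 (33.3%, against 24.1%) in any. ABCF2 and ABCF2-H2BK1, both counted among those with a peak in any library, share the region at their start.

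Summits could be placed along the gene only for the 36 members with a promoter entry, 58 and 54 with lactate and 82 and 83 in control. These summits lay more often towards the 3′ end. The final 25% of the gene held 32.8 and 37.0% of them with lactate and 28.0 and 31.3% in control. The first 25% held 13.8 and 16.7% with lactate and 14.6 and 12.05% in control. All coding genes showed the same order, with 30.8 and 30.8% in the final 25% with lactate and 29.4 and 29.0% in control.

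A list of 30 genes held genes that work beside the family and TAP1, TAP2 and CFTR. Of these, 15 held a peak in all 4 libraries (50%, against 34.2% of all genes), 1 was control-only (3.33%, against 5.9%), 9 were mixed (30%, against 19.6%) and 5 held none (16.7%, against 39.2%). Among family members outside the symbol rule, TAP2 and CFTR held a peak in all 4 libraries and TAP1 in 3. TAP1 and TAP2 form the peptide transporter of antigen presentation, and CFTR is the chloride channel.

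APOA1, the acceptor of lipid from ABCA1, held 1 and 1 peaks with lactate and 2 and 2 in control. Of the nuclear receptors that control ABC genes in liver, NR1H2 was control-only, NR1I2 held peaks in all 4 libraries, and NR1H3, NR1H4 and NR1I3 were mixed. The uptake and efflux partners SLC51A, SLC51B, SLC22A7 and SLCO2B1 held a peak in all 4 libraries. SLCO2B1 was covered over 820 and 1053 bp with lactate and 4820 and 3760 bp in control. SLC10A1 and SLCO1B3 had a peak in 1 library each, and SLCO1B1 and SLC47A1 in none.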

How the data were processed

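H4K5la peak lists of 4 libraries were analysed, 2 lactate and 2 control. The 2 inputs, without peaks, were not used here. Trimmomatic 0.38, Bowtie2 2.3.4.2, Picard 2.18.11 and MACS2 2.2.6 and the build hg38 were named per the submitters' processing notes, and the order of the steps was not given there. The authors' deposited lists give, per library and peak, a position, an integer score, a fold enrichment (ratio over background), and p and q as -log10 p-value and -log10 q-value, the q-values from about 2 upwards. The lists hold no read totals, so depth enters only through the alternative with equal numbers of peaks.

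Python 3.11.15 with numpy 2.4.6 and pandas 2.3.3 read the positions, made 1-based. Gene spans, starts and sequences came from RefSeq tables of GRCh38.p14. Covered length is the number of window bases under a peak, and regions are peaks of the 4 lists merged where they share 1 bp. Peaks joined in a region through a wider peak need not overlap each other. A region at the edge of a window can also hold peaks that lie outside the window. Exact permutation tests used scipy 1.17.1, and plots matplotlib 3.10.9. Counting was tested on simulated peaks.

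The members and lists were chosen with earlier results of these data known. Named with values were, per subfamily, up to 3 members whose strongest peaks ranked best and up to 3 by difference in covered length, all control-only, lactate-only and mixed members, and the 5 widest peaks. Other members, regions and motifs were singled out after their values were seen. Alternatives were a -log10 q of at least 5, equal numbers of peaks, flanks of 0, 1 and 20 kb, the summit or 50% of a peak in the window, no read-through gene, each library left out, and a replicate block. Some genes of the lists are not reported here.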

Additional observations from a re-analysis of the deposited data

How the results depend on the processing

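With equal numbers of peaks in each library, control-only members numbered 1 (2.27%, against 2.72% of all genes) and lactate-only members 3 (6.82%, against 2.89%: ABCA2, ABCB11 and ABCC5), and lactate over control came to 0.966 for member peaks and 0.660 for covered length. With a -log10 q of at least 5 the ratio of covered length was 0.515. Leaving out each library in turn gave 0 to 1 lactate-only members, which were ABCF1 without lactate replicate 2 and ABCE1 without lactate replicate 3, 3 to 4 control-only members, and ratios of 0.703 to 0.746 for peaks and 0.526 to 0.559 for covered length. The labels do not say that replicate numbers pair libraries, and the ratios within same-numbered pairs, as a replicate block, averaged 0.724 for peaks and 0.543 for covered length. The other settings for windows, overlap and read-through kept these ratios and counts within the spread between libraries or within 1.5 times. Mean covered length turned to higher with lactate at ABCA2 (513 bp), ABCB9 (116 bp), ABCA4 (544 bp) and ABCC11 (50 bp) with equal numbers of peaks, and at ABCF2-H2BK1 on the gene span alone (214 bp) and with 1 kb (176 bp). It turned to lower with 20 kb at ABCF1 (-571.5 bp), ABCF2 (-1626 bp) and ABCB6 (-176.5 bp), whose groups overlap in the main setting, and small differences of overlapping groups changed sign in other settings too. The causes were not tested. ABCB11 held no peak on the gene span alone or with 1 kb, and ABCG2 held one in all 4 libraries with 20 kb. Depth is not stated in the lists, so genes without a peak are undetected rather than unmarked.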

Other observations

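Noncoding loci with ABC symbols on the autosomes numbered 22, among them pseudogenes and antisense RNAs, and 1 of them held a peak within its span. This was ABCC13, a transcribed pseudogene on chromosome 21 (14273799 to 14301386), with 0 and 0 bp of peaks in the lactate libraries and 498 and 766 bp in the control libraries. The copies of ABCC6 named ABCC6P1 and ABCC6P2 held none.

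Promoter base composition differed among the 36 members with a promoter entry. The median share of G and C was 65.3% for 19 members with a peak in all 4 libraries, from 45.0 to 78.0%, and 52.8% for 10 members without a peak, from 39.7 to 77.3%. Over 15101 coding genes the median was 62.4%. The peaks themselves lay mostly away from these promoters.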
